A study of Mus musculus with 20 samples.

Results

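Immediate early response genes are switched on within minutes of a stimulus without new protein synthesis. The 10 genes described here were Fos, Fosb, Jun, Junb, Egr1, Ier2, Ier3, Atf3, Dusp1 and Zfp36, of 55573 genes in the deposited table. The set was chosen by a measured value, since Dusp1 was lower in the Nox4-/- lines than in line WT#1-4. That contrast is therefore described here without a test, and the tests concern the days of differentiation, the pair of Nox4-/- lines, and the course over the days. All 10 genes passed the filter on low counts, which kept 18488 genes.

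In textbook terms, growth factors, serum and stress activate mitogen-activated protein kinases, which phosphorylate ternary complex factors bound beside SRF and CREB-type factors already on the DNA. Transcripts such as Fos and Egr1 then rise quickly and decay quickly. Their products include the subunits of AP-1, a dimeric transcription factor, and also the brakes of the response: Dusp1 removes phosphate from the kinases, and Zfp36 (tristetraprolin) binds AU-rich elements and promotes decay of the mRNAs that carry them.

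The 20 libraries were polyadenylated RNA sequenced from 4 clonal lines of mouse induced pluripotent stem cells (iPSCs), each on days 0, 3, 5, 7 and 14 of embryoid body (EB) differentiation. WT#1-4 and WT#20D-17 were wild type, and Nox4-/-#5-8 and Nox4-/-#5-23 lacked Nox4, an NADPH oxidase that makes hydrogen peroxide. In the study's methods, iPSCs were reprogrammed from embryonic fibroblasts with retroviral Oct4, Sox2, Klf4 and c-Myc. They were kept with LIF on mitomycin-treated fibroblast feeders before LIF was withdrawn for hanging drops and plating on gelatin. The study's paper names WT#1-4 and both Nox4-/- lines but not WT#20D-17. Each line and day had 1 library, so lines served as the replicates of a day. The tests of days set the mean level of each line aside. Their p-values thus measure only how far changes over the days disagreed among these lines. The sample titles give the last day as 14, and the growth notes give it as 10; it is called day 14 here.

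The libraries held 20294968 to 27708023 counts. Nox4 itself had 3 to 22 counts in WT#1-4, 56 to 203 in WT#20D-17, 0 to 2 in Nox4-/-#5-8 and 0 in every library of Nox4-/-#5-23. On day 0, 7 of 8 pluripotency marker transcripts were highest in WT#20D-17, and Fgf4 was lowest there (93.4 CPM, against 135 to 174 CPM in the other lines). The list leaves out Oct4, Sox2, Klf4 and c-Myc, the retroviral factors of the reprogramming. In WT#20D-17 Nanog was at 383 CPM (counts scaled to library size, as below) on day 0, against 0.0380 in WT#1-4, 0.359 in Nox4-/-#5-8 and 0.149 in Nox4-/-#5-23, and Zfp42 was at 0 in every library of these 3 lines. The summed level of 8 pluripotency markers ran from 2529 CPM on day 0 to 71.6 CPM on day 14 in WT#20D-17. It lay between 66.7 and 204 CPM in the other 3 lines, most of it Fgf4. The summed level of 6 endoderm markers was 129 to 1738 CPM in WT#20D-17 and at most 4.55 CPM elsewhere. Summed over 6 mesoderm markers, the highest level was 1150 CPM in WT#20D-17, 72.1 CPM in WT#1-4, 24.8 CPM in Nox4-/-#5-8 and 4.22 CPM in Nox4-/-#5-23. WT#20D-17 thus stood apart from the other lines, and counts of changes over the days are also given without it. The terms iPSC and EB differentiation follow the labels here. In the other 3 lines, the levels of Nanog, Zfp42 and the endoderm markers do not bear these terms out. The summed level of 6 neural markers went the other way. It was 200 to 476 CPM in WT#1-4, 92.3 to 123 CPM in Nox4-/-#5-8 and 102 to 169 CPM in Nox4-/-#5-23. In WT#20D-17 it was 41.9 to 103 CPM. The mesoderm sum of WT#1-4 rose from 8.93 CPM on day 0 to 72.1 CPM on day 14. In bulk RNA, fewer cells of a type and less RNA per cell cannot be told apart.

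Expression is given as CPM scaled with trimmed mean of M values (TMM) factors over all 20 libraries. Per kilobase of exon, the highest mean levels were those of Ier3 (32.7 CPM per kb), Junb (26.9) and Ier2 (23.1), followed by Fos (15.2) and Dusp1 (10.6). The lowest was that of Fosb (0.413 CPM per kb). Fosb and Atf3 were near the bottom of the range in several libraries, with as few as 7 and 9 counts. Intervals on single libraries cover counting error only. Averaged over both sides of the value, they reached 79.0% of it for Fosb and 68.7% for Atf3, and at most 24.9% for the other genes.

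**Figure D1:**
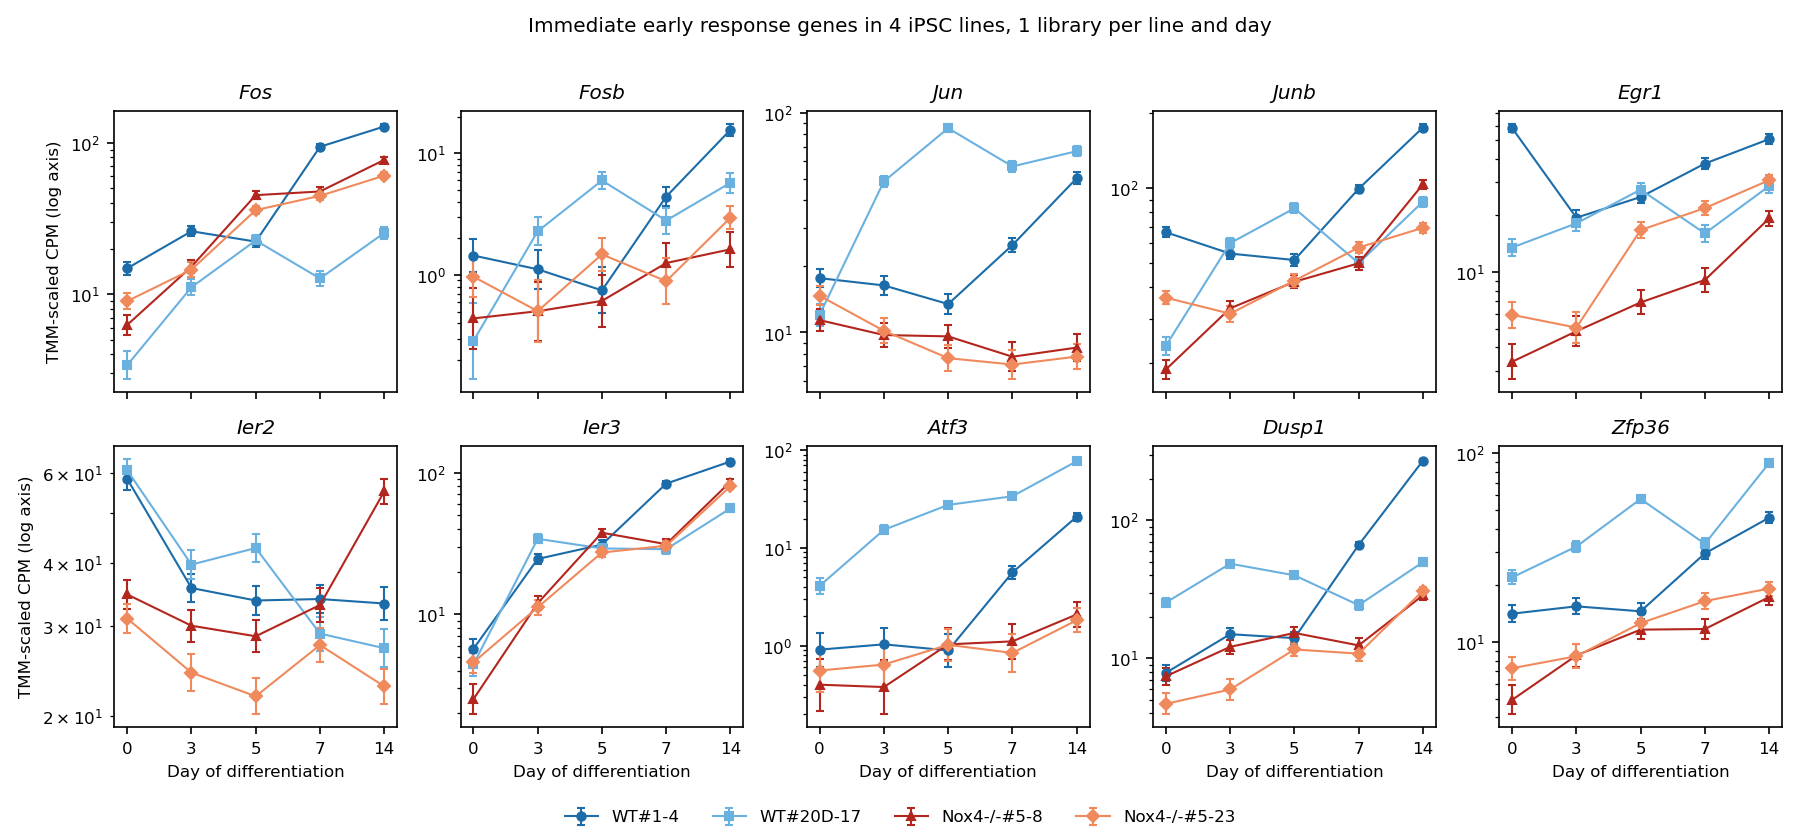
TMM-scaled CPM on a log axis against the day of differentiation, for each of the 10 genes; each point is 1 library of the line named in the key, with its 95% Wilson counting interval. Fos, Ier3, Junb, Atf3, Dusp1 and Zfp36 lie highest on day 14 in all 4 lines, while Jun is highest on day 0 in both Nox4-/- lines.

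Since 8 of the 10 genes changed over the days, promoters are shown for Fos, Junb, Atf3 and Dusp1, which rose, and for Jun, whose change did not pass the test. Each is the 250 bases before the RefSeq gene start (build GRCm38.p6), at chr12:85473640-85473889 (plus strand), and on the minus strand at chr8:84978749-84978998, chr1:191183334-191183583, chr17:26508473-26508722 and chr4:95052223-95052472, respectively. Capitals mark TGACG on either strand, the core of the cAMP response element (CRE), and the full CRE TGACGTCA where 2 such cores overlap. The windows of Ier3 and Zfp36, which also rose, hold no TGACG and are not printed, nor is that of Fosb, which holds it.
Fos: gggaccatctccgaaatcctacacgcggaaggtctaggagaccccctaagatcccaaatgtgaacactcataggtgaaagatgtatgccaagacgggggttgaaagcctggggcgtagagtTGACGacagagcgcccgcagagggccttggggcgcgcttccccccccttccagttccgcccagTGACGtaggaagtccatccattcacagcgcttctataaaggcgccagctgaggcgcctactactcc
Junb: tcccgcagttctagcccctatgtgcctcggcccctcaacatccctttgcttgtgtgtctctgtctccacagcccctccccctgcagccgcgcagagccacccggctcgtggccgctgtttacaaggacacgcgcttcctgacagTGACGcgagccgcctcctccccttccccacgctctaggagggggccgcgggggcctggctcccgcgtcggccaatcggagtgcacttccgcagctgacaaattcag
Atf3: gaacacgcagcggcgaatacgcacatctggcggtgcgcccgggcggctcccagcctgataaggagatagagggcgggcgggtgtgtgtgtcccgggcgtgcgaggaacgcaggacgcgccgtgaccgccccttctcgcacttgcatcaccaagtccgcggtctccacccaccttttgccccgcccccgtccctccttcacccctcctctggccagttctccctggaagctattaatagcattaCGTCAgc
Dusp1: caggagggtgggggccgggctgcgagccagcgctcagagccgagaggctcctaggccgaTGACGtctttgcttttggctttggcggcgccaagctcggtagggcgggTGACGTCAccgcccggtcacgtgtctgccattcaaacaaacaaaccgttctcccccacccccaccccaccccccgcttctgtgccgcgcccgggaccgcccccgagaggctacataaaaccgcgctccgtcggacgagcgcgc
Jun: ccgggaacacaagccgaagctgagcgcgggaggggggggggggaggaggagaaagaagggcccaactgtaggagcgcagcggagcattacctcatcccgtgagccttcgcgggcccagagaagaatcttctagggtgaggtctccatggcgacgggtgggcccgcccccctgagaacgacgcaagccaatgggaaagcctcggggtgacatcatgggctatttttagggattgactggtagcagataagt
RefSeq promoters were matched for 8 of the 10 genes. TGACG stood in 5 of the 8 (Fos, Fosb, Junb, Atf3 and Dusp1), and in 17.8% of all 32851 promoters of that length. The full CRE, which contains this core, stood in Dusp1 alone (1.55% of all promoters). The SRF-binding CArG box stood in Zfp36 (1.47%), the EGR site GCGNGGGCG in Fosb and Zfp36 (4.70%), and TATAAA in Fos (12.4%). The AP-1 site TGANTCA stood in none of the 8, and in 6.75% of all promoters. These matches only describe the letters in the windows, on both strands.

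Fos encodes the founding AP-1 subunit, which needs a Jun-family partner to bind DNA. From day 0 through days 3, 5, 7 and 14, it measured 14.8, 26.0, 22.2, 94.0 and 128 CPM in WT#1-4 and 3.40, 11.1, 22.6, 12.7 and 25.3 CPM in WT#20D-17. In Nox4-/-#5-8 it measured 6.27, 15.2, 45.0, 47.6 and 77.0 CPM, and in Nox4-/-#5-23 8.99, 14.5, 35.9, 44.6 and 60.6 CPM. Day 0 was the lowest and day 14 the highest point in each of the 4 lines, with a day 14 level 6.74 to 12.3 times that of day 0. Days 3 to 14 averaged 2.21 ± 0.30 (SE) higher than day 0 on the log2 scale (adjusted p = 1.16e-04, edgeR quasi-likelihood test with Benjamini-Hochberg adjustment over 18488 genes, as for all adjusted p-values below).

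Fosb and Junb are further AP-1 subunits. Junb, a relative of Jun, measured 66.5, 54.7, 51.5, 99.4 and 175 CPM in WT#1-4, and 23.4, 60.2, 83.0, 50.0 and 88.2 CPM in WT#20D-17. It measured 18.8, 33.0, 42.1, 50.0 and 104 CPM in Nox4-/-#5-8, and 36.4, 31.4, 42.6, 57.8 and 69.3 CPM in Nox4-/-#5-23. Day 14 was again the highest in every line, and Junb rose by 0.90 ± 0.24 (log2, SE) on later days (adjusted p = 0.0112), which did not pass without Nox4-/-#5-8 (0.73, adjusted p = 0.0968). Prdx2, on the other strand, overlaps Junb and was more abundant (186 to 827 CPM). Whether the authors' counting used strand was not given in the sources used here, so reads of the overlap may be shared. Fosb ranged from 0.287 to 15.6 CPM, and changed over the days (adjusted p = 0.0194), though not without WT#1-4 (0.128) or either Nox4-/- line (0.102 for each). Its mean change on later days was 1.34 ± 0.56 (log2, SE, adjusted p = 0.0806), and on day 14 it was 2.63 ± 0.66 above day 0 (adjusted p = 0.00457).

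Jun, the main partner of Fos, did not follow this pattern. It measured 17.7, 16.4, 13.5, 25.0 and 50.3 CPM in WT#1-4, and 12.0, 48.7, 85.0, 57.0 and 66.8 CPM in WT#20D-17. In Nox4-/-#5-8 it measured 11.4, 9.73, 9.60, 7.75 and 8.53 CPM, and in Nox4-/-#5-23 14.7, 10.2, 7.64, 7.15 and 7.77 CPM. Day 14 was thus above day 0 in both wild-type lines (2.85 and 5.54 times) and below it in both Nox4-/- lines (0.750 and 0.529 times). Over the 4 lines, no change with the days passed the test (adjusted p = 0.890).

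Egr1 encodes a zinc finger factor that rises with serum and growth factors. It measured 58.2, 19.5, 25.1, 37.7 and 50.8 CPM in WT#1-4, where day 0 was the highest point, and 13.5, 18.2, 27.4, 16.1 and 28.7 CPM in WT#20D-17. It measured 3.35, 4.87, 6.92, 9.10 and 19.3 CPM in Nox4-/-#5-8, and 5.95, 5.09, 16.8, 21.9 and 30.8 CPM in Nox4-/-#5-23. Day 14 was the highest in the lines other than WT#1-4. Its change over the days passed the test (adjusted p = 0.0437), but not without Nox4-/-#5-8 or without Nox4-/-#5-23 (0.293 for the latter), and the mean of the later days against day 0 was 0.48 ± 0.35 (log2, SE, adjusted p = 0.315). Leaving out WT#1-4, that difference was 1.18 (adjusted p = 0.0223).

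Atf3 encodes a stress-induced bZIP factor that can pair with AP-1 subunits. In WT#1-4 it measured 0.912, 1.03, 0.895, 5.61 and 20.9 CPM, and in WT#20D-17 4.10, 15.3, 27.6, 33.8 and 77.1 CPM. It stayed between 0.378 and 2.09 CPM in Nox4-/-#5-8 and between 0.558 and 1.82 CPM in Nox4-/-#5-23, with day 14 the highest in both. Every library of WT#20D-17 lay above every Nox4-/- library. Over the 4 lines, Atf3 rose by 1.86 ± 0.47 (log2, SE) on later days (adjusted p = 0.00788), which did not pass the test without WT#20D-17 (1.44, adjusted p = 0.0579).

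Ier3 encodes a small protein that modulates survival signaling. It measured 5.70, 24.6, 31.0, 83.5 and 120 CPM in WT#1-4, and 4.43, 34.1, 29.1, 28.8 and 55.9 CPM in WT#20D-17. In Nox4-/-#5-8 it measured 2.52, 12.0, 37.6, 31.2 and 86.2 CPM, and in Nox4-/-#5-23 4.57, 11.2, 27.3, 30.4 and 80.1 CPM. In every line all later days lay above day 0, and day 14 was 12.6 to 34.3 times day 0. Of the 10 genes, Ier3 had the largest rise on later days, 3.18 ± 0.33 (log2, SE, adjusted p = 1.84e-05), and it alone already passed the test on day 3 (2.22 ± 0.35, adjusted p = 0.00730).

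Ier2, a nuclear protein induced by growth factors, went the other way. It measured 58.4, 35.6, 33.7, 33.9 and 33.2 CPM in WT#1-4, and 60.7, 39.6, 42.7, 29.0 and 27.1 CPM in WT#20D-17. It measured 34.6, 30.0, 28.6, 33.0 and 55.2 CPM in Nox4-/-#5-8, and 31.0, 24.3, 21.8, 27.5 and 22.8 CPM in Nox4-/-#5-23. Day 0 was the highest point in 3 lines and day 14 in Nox4-/-#5-8. Ier2 fell by 0.49 ± 0.18 (log2, SE) on later days (adjusted p = 0.0436), a call that did not hold without WT#1-4 (adjusted p = 0.235), WT#20D-17 (0.112) or Nox4-/-#5-23 (0.122), nor with no filter on low counts (0.0661) or without the WT#1-4 library of day 14 (0.0743).

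Dusp1 encodes the phosphatase that ends signaling by ERK, JNK and p38 kinases, and was the gene on which the set was picked. It measured 7.86, 15.0, 14.02, 66.4 and 271 CPM in WT#1-4, and 25.4, 48.6, 40.0, 24.3 and 49.9 CPM in WT#20D-17. It measured 7.43, 12.1, 15.3, 12.4 and 28.7 CPM in Nox4-/-#5-8, and 4.68, 5.96, 11.6, 10.8 and 30.9 CPM in Nox4-/-#5-23. Day 14 was the highest in all 4 lines, at 34.5 times day 0 in WT#1-4 and 1.96 to 6.60 times in the other lines. Dusp1 rose by 1.45 ± 0.48 (log2, SE) on later days (adjusted p = 0.0303). WT#1-4 and both Nox4-/- lines entered the choice of the gene. No test of Dusp1 over the days was therefore free of libraries that the rule used. Leaving out WT#1-4, the rise was 1.06 (adjusted p = 0.0230). Without Nox4-/-#5-8 or Nox4-/-#5-23 it did not pass (adjusted p = 0.0930 and 0.139). The annotated Dusp1 model (chr17:26505590-26562128, GRCm38, minus strand) overlaps Ergic1 on the other strand. Ergic1 was at 396 CPM in the WT#1-4 library of day 14 and at 84.7 to 217 CPM in the other libraries, and its part in the Dusp1 value of that library was not tested.

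Zfp36, the mRNA decay factor, measured 14.2, 15.5, 14.6, 29.5 and 45.7 CPM in WT#1-4, and 22.1, 32.1, 57.4, 33.2 and 89.0 CPM in WT#20D-17. It measured 4.95, 8.52, 11.7, 11.8 and 17.3 CPM in Nox4-/-#5-8, and 7.28, 8.43, 12.6, 16.5 and 19.2 CPM in Nox4-/-#5-23. Each line had its highest level on day 14, 2.64 to 4.04 times that of day 0. Zfp36 rose by 1.02 ± 0.19 (log2, SE) on later days (adjusted p = 0.00106).

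Taking the 10 genes as a list, 8 changed over the days, the exceptions being Jun and Ier2, while 28.0% of all tested genes did. On later days against day 0, 6 rose (Ier3, Fos, Atf3, Dusp1, Zfp36 and Junb) and Ier2 fell, beside 15.3% of all genes that rose and 14.5% that fell. Of the 6 that rose, Fos, Junb, Atf3 and Dusp1 held TGACG in their promoter windows. Ier3 and Zfp36, whose windows are not printed, did not. The median change of the 10 genes was 1.18 on the log2 scale, and that of all tested genes was 0.03. The number of the 10 genes that passed above day 0 was 1 on day 3, 3 on day 5, 5 on day 7 and 8 on day 14, beside 0.719%, 6.41%, 13.4% and 21.7% of all genes. Without WT#20D-17 it was 1, 2, 5 and 8, beside 1.76%, 9.53%, 17.7% and 24.8%.

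**Figure D2:**
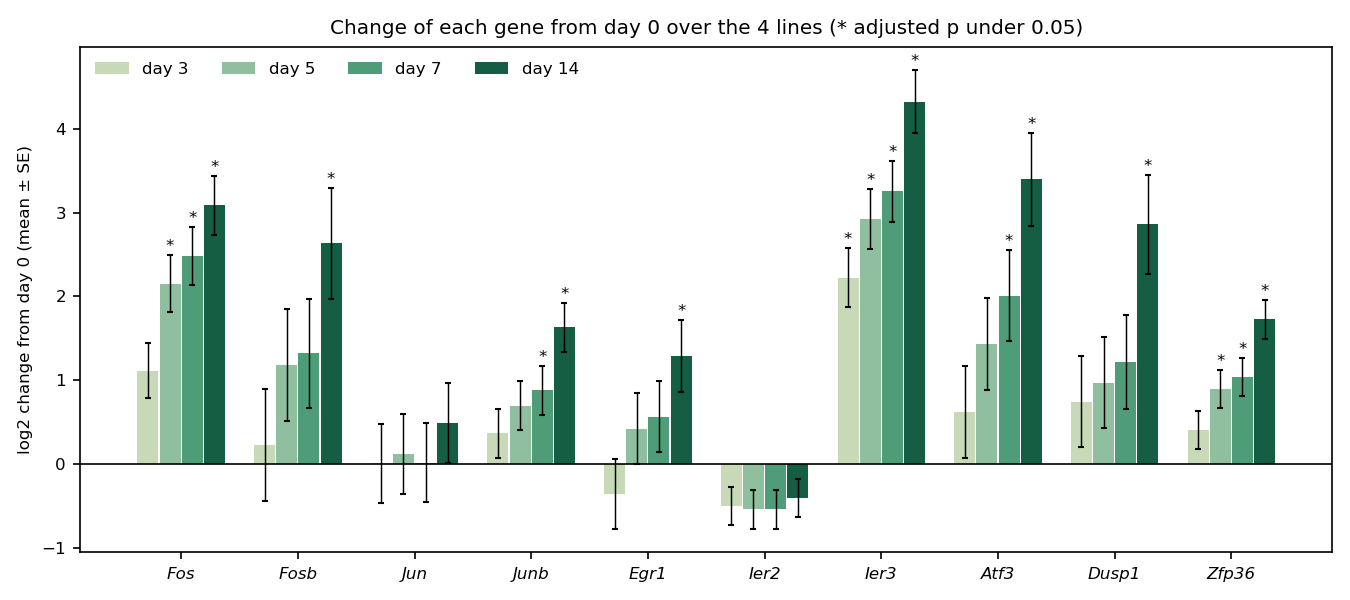
log2 change from day 0 (mean over the 4 lines, with its SE from the edgeR fit) for each of the 10 genes on days 3, 5, 7 and 14; asterisks mark adjusted p-values under 0.05. Bars of Ier3 and Fos grow from day to day, 8 genes are marked on day 14, and those of Ier2 lie below 0 on every day.

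The late step was tested on its own. Against the mean of days 3, 5 and 7, day 14 was higher for 8 of the 10 genes, again all but Jun and Ier2, and lower for none, while 11.6% of all genes were higher and 11.7% lower. The differences ran from 0.95 ± 0.17 (log2, SE) for Zfp36 (adjusted p = 0.00145) to 2.04 ± 0.38 for Atf3 (adjusted p = 0.00141). In 7 of the 10 genes day 14 lay above day 0 in each of the 4 lines, as it did in 18.0% of all genes. The remaining 3 were Jun, Egr1 (lower on day 14 in WT#1-4) and Ier2.

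These counts were repeated with each line left out. Any change over the days was called for 7 of the 10 genes without WT#1-4 (17.6% of all genes tested), for 8 without WT#20D-17 (36.7%), for 4 without Nox4-/-#5-8 (18.0%) and for 5 without Nox4-/-#5-23 (12.4%). The rise of day 14 over days 3 to 7 was called for 7, 8, 5 and 6 genes in the same order, where 10.6%, 32.2%, 16.1% and 13.4% of all genes differed in either direction. Without the single library of WT#1-4 on day 14, it was called for 6 (15.8% of all genes), and Dusp1 (1.11, adjusted p = 0.0720) and Fosb (1.22, adjusted p = 0.118) no longer passed. Without day 3 it was called for 3 genes (5.81% of all genes), namely Ier3, Atf3 and Dusp1. Without the whole of day 14, 4 genes still changed over days 0 to 7 (23.5% of all genes). Later days against day 0 gave 5 to 7 calls among the 10 genes over all these settings, and 5 without WT#20D-17 (35.3% of all genes). Without the term for the line, so that differences between lines counted as spread, 2 of the 10 genes changed over the days (7.55% of all genes), 2 differed between later days and day 0 (8.26%), and 1 rose on day 14 over days 3 to 7 (5.14%).

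In the contrast on which the set was picked, Nox4-/- against WT#1-4 with days pooled, the fitted log2 difference was below 0 for all 10 genes. It was -2.42 for Dusp1, -2.56 for Atf3, -2.04 for Fosb, -1.62 for Egr1, -1.38 for Jun, -1.01 for Zfp36, -0.88 for Junb, -0.71 for Ier3, -0.68 for Fos and -0.34 for Ier2. Mean Dusp1 was 74.9 ± 112 CPM (SD, n = 5) in WT#1-4 and 13.99 ± 8.94 CPM (SD, n = 10) in the Nox4-/- lines, and the libraries overlapped. With day as a replicate block the Dusp1 difference was -1.55, and without day 14 it was -1.36. None of the 10 genes had every Nox4-/- library below or above every WT#1-4 library, which was the case for 3.52% (below) and 2.30% (above) of all genes. These values chose the set and are given without a test.

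The difference from WT#1-4 was not even over the days. For Dusp1, WT#1-4 was 1.299, 1.66, 1.04, 5.71 and 9.10 times the mean of the Nox4-/- lines on days 0, 3, 5, 7 and 14. With days 7 and 14 left out, the pooled Dusp1 difference was -0.37 on the log2 scale, and those of Atf3, Fosb and Jun were -0.49, -0.54 and -0.59. Egr1 had its widest gap on day 0, where WT#1-4 was 12.5 times the Nox4-/- mean, and 2.03 times on day 14. WT#1-4 lay above both Nox4-/- lines in 10, 10, 5, 10 and 9 of the 10 genes on the successive days. On day 5 the exceptions were Fos, Fosb, Ier3, Atf3 and Dusp1.

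Side by side, the same Nox4-/- libraries against WT#20D-17 gave another order. The pooled difference was below 0 for 8 genes, with Atf3 (-4.99), Jun (-2.51), Zfp36 (-1.98), Fosb (-1.60) and Dusp1 (-1.43) farthest from 0, and was 1.24 for Fos and 0.09 for Ier3. The sign for Ier3 turned with day as a replicate block (-0.25), without day 14 (-0.30) and without days 7 and 14 (-0.51), so that 9 genes were then below 0. For Atf3 and Zfp36 every Nox4-/- library lay below every WT#20D-17 library, as for 14.6% of all genes, and none of the 10 genes showed the opposite, which 11.3% of all genes did. Fos was thus lower in WT#20D-17 than in both Nox4-/- lines on all 5 days, and higher in WT#1-4 than in both on 4 days. Dusp1 in WT#20D-17 was 4.20, 5.37, 2.97, 2.09 and 1.67 times the Nox4-/- mean on the successive days, so that its ratio was smallest on day 14, where that of WT#1-4 was largest. Both comparisons share the Nox4-/- libraries, and with 1 clone of wild type in each, genotype and clone cannot be told apart. Markers of other cells also differed between the lines. The summed level of 9 fibroblast markers, for feeder cells or outgrowth, was 186 to 414 CPM in WT#1-4 and 26.4 to 3042 CPM in WT#20D-17. In the Nox4-/- lines it was 19.7 to 73.9 CPM. Different genes made up this sum. Fbn1 averaged 182 CPM in WT#1-4, 30.8 CPM in WT#20D-17 and 26.6 CPM in the Nox4-/- lines, and Col1a1 26.2, 347 and 2.40 CPM. Dcn was higher in the Nox4-/- lines (5.87 CPM) than in WT#1-4 (4.26 CPM). The part of these markers in the differences was not tested.

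**Figure D3:**
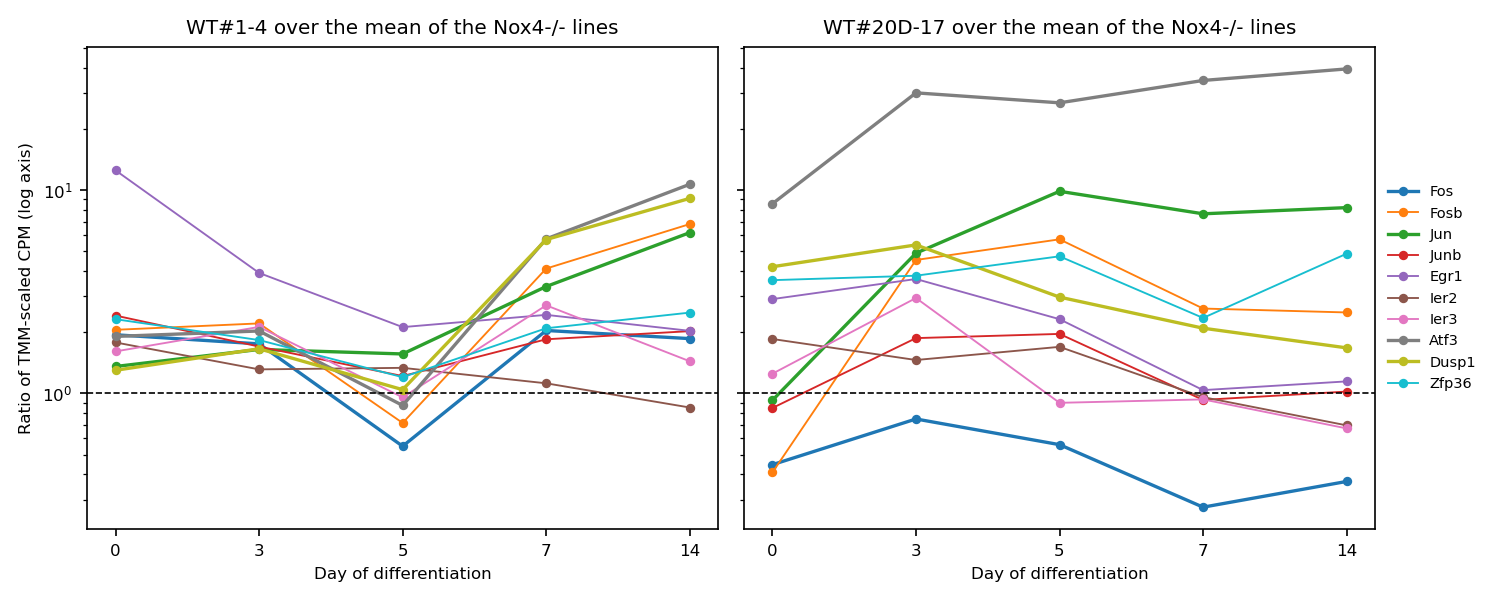
Ratio of TMM-scaled CPM in WT#1-4 (left) and WT#20D-17 (right) to the mean of both Nox4-/- lines, on a log axis, against the day; each line is 1 gene and the dashed line marks equal levels. On the left Atf3, Dusp1, Fosb and Jun climb after day 5, to 10.7, 9.10, 6.80 and 6.18 on day 14, and on the right Fos lies below 1 on all 5 days.

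The Nox4-/- lines did not differ from each other by the test for any of the 10 genes, while 8.04% of all genes passed. At an unadjusted p under 0.05 there were 2, beside 3932 of all 18488 genes tested. They were Egr1 (0.86 ± 0.37 higher in Nox4-/-#5-23, log2, SE, adjusted p = 0.188) and Ier2 (-0.52 ± 0.21, adjusted p = 0.148). DESeq2 also called 0 of the 10, beside 12.2% of all genes. For Dusp1 the difference was -0.45 ± 0.49 and for Fos -0.08 ± 0.29 (log2, SE). The days of 1 line stood in for replicates in this test and are not independent cultures of it.

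The course over the days was compared between genotypes with the level of each line set aside. No gene of the 10 passed, beside 0.0325% of all genes (6 genes), and DESeq2 called 460 genes and 0 of the 10. Jun (unadjusted p = 0.0494, edgeR quasi-likelihood test, adjusted p = 0.667) and Egr1 (unadjusted p = 0.0349, adjusted p = 0.629) were under 0.05 before adjustment. So were 1381 of all 18488 genes tested. Without WT#1-4, where WT#20D-17 alone stands for the wild type, 2252 genes (12.6% of all genes tested) passed, and of the 10 only Jun (adjusted p = 0.00415). The number among the 10 was thus near the share of all genes, and genotype and clone cannot be told apart there. Dusp1 was among those that did not pass, and WT#1-4 and both Nox4-/- lines had entered its choice. Its test here was therefore not free of libraries that the rule used.

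Over the 20 libraries, the 5 genes with levels most like those of Dusp1 were Crebrf (Pearson r = 0.922 of log2(CPM + 1)), Ralgds (0.920), Dusp5 (0.914), Klhl24 (0.910) and Vps37a (0.902). Those most like Fos were Inpp4a (0.955), Prickle3 (0.945), Kdm3a (0.945), Bhlhe40 (0.939) and Sbno2 (0.937). Both lists come from 10154 genes with a mean of at least 10 CPM. These values are a description, since the points share lines and days. None of the 10 genes was among the closest of either. Among the 45 pairs of the 10 genes, r ran from -0.27 to 0.93, and was over 0.5 in 27 pairs. The share over 0.5 among pairs of all genes is not given here, so this count has no background beside it.

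Further lists placed the set among its neighbors in the pathway. For each list below, the shares of all genes on later days against day 0 are 15.3% higher and 14.5% lower. Of 9 other AP-1 and related bZIP genes, 4 rose on later days and 1 fell. Fosl2, a Fos relative, rose by 2.58 ± 0.40, and the small Maf factors Maff and Mafk rose by 1.89 ± 0.29 and 1.02 ± 0.21 (log2, SE, adjusted p = 2.83e-04, 2.45e-04 and 0.00203). Fosl1 fell by 1.26 ± 0.43 (adjusted p = 0.0370), being at 6.43 CPM on day 0 and at 1.06 to 1.71 CPM later in Nox4-/-#5-23, and was at or below 0.843 CPM in the other lines. Of 5 tested genes of the EGR and NR4A families (Egr4 did not pass the filter), Egr3 rose by 2.36 ± 0.60 (adjusted p = 0.00758).

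Of 24 other serum response and immediate early genes tested, 10 rose and none fell. The matricellular genes Ccn2 and Ccn1 rose by 3.07 ± 0.48 and 2.83 ± 0.53, and Gadd45g, a growth arrest gene, by 2.87 ± 0.43 (log2, SE, adjusted p = 2.77e-04, 0.00110 and 2.03e-04). Of 8 other dual specificity phosphatases, 3 rose: Dusp8 by 1.80 ± 0.33, Dusp5 by 1.64 ± 0.38 and Dusp14 by 1.05 ± 0.34 (adjusted p = 8.80e-04, 0.00457 and 0.0278). Dusp5 reached 59.9 CPM in WT#1-4 on day 14, against 12.7 and 7.84 CPM in the Nox4-/- lines and 26.8 CPM in WT#20D-17. Of 6 mRNA decay and NF-kB feedback genes, 3 rose, namely Socs3 by 2.19 ± 0.29, Tnfaip3 by 1.20 ± 0.32 and Nfkbia by 1.02 ± 0.29 (adjusted p = 1.07e-04, 0.0103 and 0.0136).

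Of 17 upstream kinases and SRF or TCF factors, 3 rose (17.6%), which is near the 15.3% of all genes. They were Mapk3 (ERK1) by 1.18 ± 0.19, Elk3 by 0.83 ± 0.22 and Map2k1 (MEK1) by 0.51 ± 0.09 (log2, SE, adjusted p = 3.80e-04, 0.0109 and 7.93e-04). The median of the list was -0.06. Of 8 heat shock genes, listed as a sign of handling stress, none rose and 4 fell on later days against day 0. Among these were Hsph1 at -1.24 ± 0.14, Hsp90aa1 at -0.68 ± 0.19 and Hspe1 at -0.57 ± 0.14 (adjusted p = 4.44e-05, 0.0122 and 0.00771). On day 14 against days 3, 5 and 7, however, 3 of the 8 were higher and 2 lower, beside 11.6% and 11.7% of all genes. The summed level of the 8 genes was 4035 to 5618 CPM in WT#1-4, 2235 to 7138 CPM in WT#20D-17 and 4004 to 6355 CPM in the Nox4-/- lines. The stress-inducible Hspa1b was at 20.2 to 51.4 CPM in WT#1-4, highest on day 14, and at 3.78 to 7.84 CPM in the Nox4-/- lines. Hspa1a averaged 22.5 CPM in WT#1-4, 10.5 CPM in WT#20D-17 and 0.825 CPM in the Nox4-/- lines. Every Nox4-/- library lay below every WT#1-4 library in 2 of the 8 genes (3.52% of all genes). Below every WT#20D-17 library it was 1 of the 8 (14.6%). The part of the heat shock genes in the immediate early values was not tested. Of the marker lists, 5 of 6 endoderm, 4 of 6 mesoderm and 1 of 6 neural genes rose on later days, and 3 of 8 pluripotency and 1 of 9 fibroblast genes fell.

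Without WT#20D-17, fewer marker genes passed the filter, and their calls differed. None of 2 endoderm genes was called, 3 of 5 mesoderm genes rose, 1 of 6 neural genes rose and 1 fell, 2 of 5 pluripotency genes rose, and 3 of 8 fibroblast genes fell. Rises of the pathway lists were then 3 of 7 other AP-1 and bZIP genes, 2 of 5 EGR and NR4A genes, 10 of 24 other serum response genes, 4 of 8 dual specificity phosphatases, 3 of 6 decay and feedback genes, 3 of 17 upstream genes and 1 of 8 heat shock genes, beside 18.6% of all genes. Falls were 0 in the first 4 of these lists, 1, 1 and 3 in the others, beside 16.7% of all genes.

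**Figure D4:**
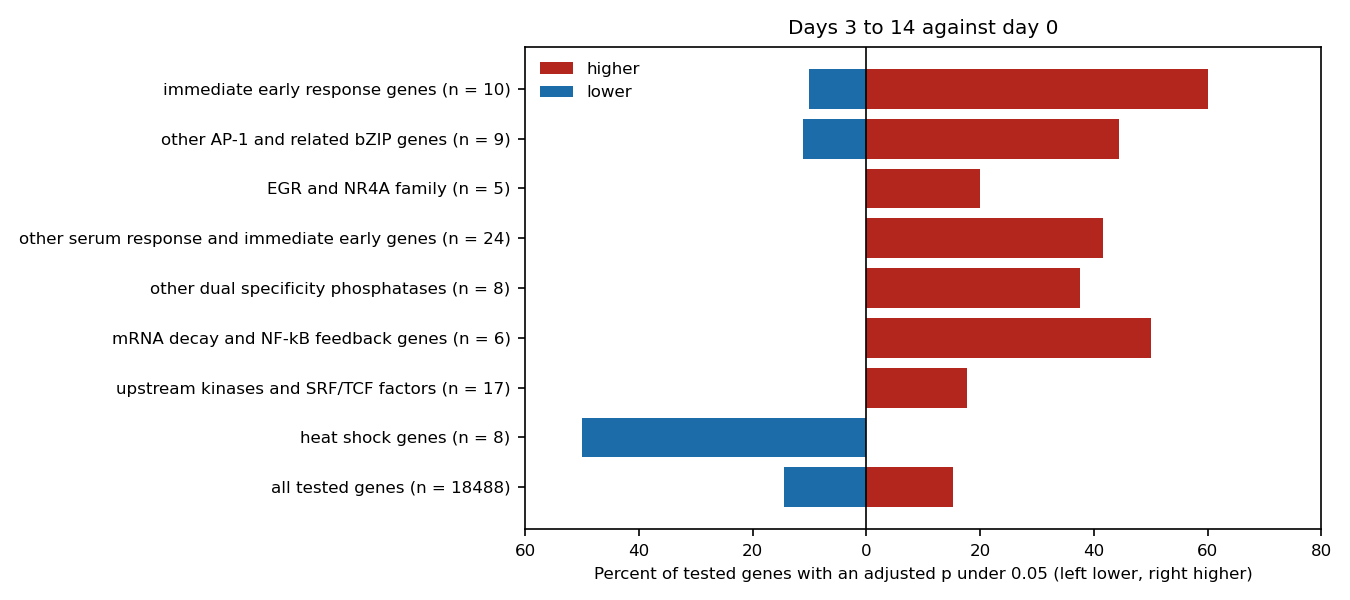
Percent of the tested genes of each list that were lower (left, blue) or higher (right, red) on days 3 to 14 than on day 0, with the number tested beside each name. Higher calls are 60.0% of the 10 immediate early response genes and 15.3% of all genes, and the heat shock genes have lower calls alone.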

How the data were processed

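Polyadenylated RNA of 20 libraries (4 lines on 5 days) was sequenced paired-end with a stranded kit. Per the labels and the study's methods, the authors trimmed reads, aligned them to GRCm38 (mm10, Ensembl 97) with STAR 2.6.0c and estimated expected counts per gene with RSEM 1.3.1. The deposited expected counts are not normalized, and were rounded to whole numbers here. RSEM divides reads shared by similar genes, and the strand setting was not given in the sources used here.

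Genes were filtered with filterByExpr on the design of line and day, and TMM-scaled in edgeR 4.0.16 (R 4.3.3). Days, and both Nox4-/- lines, were compared in 1 quasi-likelihood fit on line and day over all 20 libraries, and courses by adding genotype-by-day terms, with Benjamini-Hochberg adjustment over 18488 genes and a threshold of 0.05. Differences from a wild-type line are exact-test log2 fold changes, used as description. Lines were paired by the day in the labels: mean same-day correlations of deviations over 6 pairs of lines were 0.152 to 0.562, and -0.134 to -0.0348 for other days, the lowest single same-day value being -0.218. Deviations within a line sum to 0, so the negative values for other days largely follow from the same-day ones and are no separate check. Intervals are 95% Wilson, and a count of 0 allows 0.108 to 0.148 CPM (3 counts). Promoters came from RefSeq (GRCm38.p6), gene positions from GENCODE. DESeq2 1.42.0 and other settings served as alternatives, and the test code was tested on simulated data.

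The members, 7 pathway lists (79 genes, 4 matched by an older symbol) and 5 marker lists were chosen with earlier results of these data known. Genes were named by membership, by the 3 largest passing changes of a list, or by likeness. Fosl1, Dusp5, Hspa1a and Hspa1b levels were chosen after their values were seen.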

Additional observations from a re-analysis of the deposited data

Results flagged for a closer look

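Each gene's 5 libraries per line were screened for a value far from the rest by Dixon's criterion (0.71 for 5 values). Of 40 gene and line combinations 6 met it. The rate of about 1 in 20 by chance is for replicates of 1 condition, and does not apply to 5 different days. In WT#1-4 these were Dusp1 (271 CPM), Atf3 (20.9 CPM) and Fosb (15.6 CPM), all on day 14, and Ier2 on day 0 (58.4 CPM). In Nox4-/-#5-23, Dusp1 on day 14 (30.9 CPM) lay far above the other days, and in Nox4-/-#5-8, Ier2 on day 14 (55.2 CPM) did. Days differ by design, so such a value is not in itself a library apart.

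Jun rose from day 0 to day 14 in both wild-type lines and fell in both Nox4-/- lines. The mean log2 change was 2.66 higher in the wild-type lines. The test over all days gave an adjusted p of 0.667 (edgeR quasi-likelihood test), and 0.00415 without WT#1-4. In that setting the wild type is 1 line, and 12.6% of all genes tested passed.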

How the results depend on the processing

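Of 50 differences of the 10 genes, 9 turned sign under some alternative, none of them past the threshold: those of Egr1 and Jun on later days, Jun and Ier2 on day 14, Jun, Junb, Ier3 and Atf3 between the Nox4-/- lines, and Ier3 against WT#20D-17, the last without a test. Upper quartile scaling moved the median of all genes on later days from 0.03 to -0.07 (log2), and the share of higher calls from 51.3% to 38.9%, while 6 of the 10 genes still rose and 1 fell. At an adjusted p of 0.01, all genes called were 3091 over the days, 2935 on later days (4 of the 10 genes), 2048 on day 14, 625 between the Nox4-/- lines and 2 for the course by genotype. That last count was 21 with no filter, 460 with DESeq2 and 49 without the WT#1-4 library of day 14, an alternative chosen after seeing the data, as were leaving out days 7 and 14 and the counts by day and list without WT#20D-17. DESeq2 called 2253 genes between the Nox4-/- lines. With no replicate block, 1395 genes (2 of the 10) changed over the days, 1528 (2) on later days, 951 (1) on day 14 and 778 between the Nox4-/- lines. The cause was not tested.

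Leaving out 1 line or day gave 4 to 8 of the 10 genes over the days (2249 to 6263 of all), 5 to 7 on later days (2553 to 6023), 3 to 8 on day 14 (1057 to 5494) and 0 to 1 for the course by genotype (0 to 2252). Between the Nox4-/- lines it gave 554 to 2593 genes. With 1 library per line and day, no spread within a line and day can be had.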
